A study of Mus musculus with 62 samples.

Results

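The genes of glucose uptake and glycolysis described here were 10 transcripts picked by name: the glucose transporters Slc2a1 and Slc2a4, the glycolytic genes Hk2, Pfkfb3, Aldoa, Pgk1 and Pkm, the lactate dehydrogenases Ldha and Ldhb, and Pdk4. They are 10 of the 47643 gene symbols measured, and all 10 were among the 12581 tested. RNA came from brown adipose tissue of female mice, given as 2 months old, in 62 libraries. CAC mice had received melanoma cells that the labels call cachectic, NCAC mice had received non-cachectic melanoma cells, and Con mice had a mock injection. Tissue was taken 2, 4, 6 and 8 weeks later, with 5 libraries per group and 7 for CAC at 8 weeks. Cachexia is the wasting of fat and muscle seen with some tumours. The series text names NCI Ath/nude mice, which lack a thymus and so most T cells, while the sample labels name C57BL6/J mice. The extraction text refers to another tumour model, LLC cells at 3 weeks. The number 56 stands in the titles of both CAC replicate 1 and Con replicate 1 at 4 weeks. Groups follow the treatment and time labels, and how far the strain or these labels bear on the values was not tested. The labels call the libraries biological replicates without naming animals, so p-values measure the spread between these libraries.

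Glucose enters a cell through transporters, GLUT1 (Slc2a1) at a steady rate in most cells and GLUT4 (Slc2a4) in fat and muscle when insulin or, in brown fat, cold signals move it to the surface. Glycolysis splits glucose into pyruvate, which is either oxidised in mitochondria through pyruvate dehydrogenase or reduced to lactate by lactate dehydrogenase. The enzyme is a tetramer of A (Ldha) and B (Ldhb) chains, of which A-rich forms are typical of glycolytic tissue and B-rich forms of oxidative tissue such as heart. PDK4 phosphorylates pyruvate dehydrogenase and turns it off, which spares glucose in fasting. Active brown fat takes up much glucose as well as fatty acids and burns them for heat through the uncoupling protein UCP1.

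The promoters of Ldha and Slc2a1, which gave most of the differences below, and of Ldhb, the second lactate dehydrogenase gene, are shown as the 250 bases before the transcript start (RefSeq, build GRCm38.p6). Capitals mark each match to ACGTG, a form of the core of the hypoxia response element bound by HIF factors, or to its reverse complement CACGT. Other forms of the core were not searched.
Ldha (chr7:46845554-46845803, + strand): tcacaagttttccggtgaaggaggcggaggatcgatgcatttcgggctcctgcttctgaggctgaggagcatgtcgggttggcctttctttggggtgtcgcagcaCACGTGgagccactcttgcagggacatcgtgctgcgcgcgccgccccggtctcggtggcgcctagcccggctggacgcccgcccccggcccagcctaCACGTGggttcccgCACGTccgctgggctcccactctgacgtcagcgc
Slc2a1 (chr4:119108495-119108744, + strand): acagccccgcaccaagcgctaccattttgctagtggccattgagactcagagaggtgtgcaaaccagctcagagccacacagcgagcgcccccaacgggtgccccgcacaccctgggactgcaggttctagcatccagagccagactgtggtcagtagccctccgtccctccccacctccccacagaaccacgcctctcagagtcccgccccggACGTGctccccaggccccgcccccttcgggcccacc
Ldhb (chr6:142507958-142508207, - strand): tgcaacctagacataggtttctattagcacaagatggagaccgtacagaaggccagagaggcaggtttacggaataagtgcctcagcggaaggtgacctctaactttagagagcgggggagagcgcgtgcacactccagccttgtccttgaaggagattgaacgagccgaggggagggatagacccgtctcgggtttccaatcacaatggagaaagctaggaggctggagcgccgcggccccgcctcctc
The Ldha promoter held 5 matches, which include 2 copies of CACGTG, the E-box bound by MYC and related factors. Each copy holds 1 match on either strand, so the copies overlap with matches counted before. The Slc2a1 promoter held 1 match and the Ldhb promoter 0. RefSeq listed a second start of Ldha, whose promoter held 0 matches. Counted over windows of 300 bases, which run 50 bases past the start, 7 of the 9 members with a promoter in the table (14 promoters, Slc2a4 not among them) held ACGTG in at least 1. Of all 32851 promoters, 19.6% held it. CACGTG, which overlaps ACGTG, stood in promoters of 2 members, Ldha and Pfkfb3, and in 7.15% of all promoters. GTAAACA (FOXO) and the element of the glucocorticoid receptor, searched on both strands, were found in promoters of 0 members, against 3.65% and 0.475% of all promoters. A member with several starts has more windows than a single promoter, and a match of letters is a description, not a bound site.

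Values are TPM, an abundance per transcript length that sums to the same total in every library, so the depth is unknown and no counting error can be given. By mean TPM over the 62 libraries, Aldoa led with 1773 TPM, followed by Pkm with 1168, Ldha with 1022, Pdk4 with 700.1, Ldhb with 596 and Pgk1 with 537. Slc2a4 averaged 269 TPM, Pfkfb3 170.1, Hk2 155 and Slc2a1 3.95. GLUT4 transcript was thus the main of these glucose transporters at every time, and Slc2a1 stood low, at rank 8353 of the symbols, where Aldoa stood at rank 29. The brown adipocyte marker Ucp1 averaged 5483 TPM, and the melanocyte marker Tyr never passed 0.0061 TPM. Bulk tissue was measured, so fewer cells of a type and less RNA per cell cannot be told apart.

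Differences were tested with limma on log2(TPM + 1), on which the change of a gene as low as Slc2a1 is understated. A difference was called where the p-value, adjusted over all 12581 genes, was under 0.05. Transcripts of the mitochondrial genome took 44.3% to 55.6% of all TPM in CAC at 8 weeks, against 56.04% to 61.99% in NCAC and 59.9% to 65.5% in Con. The median gene was also higher in CAC, by 0.28 against Con and 0.21 against NCAC at 8 weeks and by 0.18 and 0.07 at 6 weeks, all on the log2 scale. A second value, the rescaled change, comes from TPM divided by median-of-ratios factors, which bring the median gene close to 0. Con libraries 3 and 4 of 4 weeks had a mitochondrial share of 39.6% and 39.7%, against 57.1% to 58.7% in the other 3, and lay above those 3 for 8 of the 10 genes on TPM and 5 of 10 after rescaling. CAC replicate 3 of 8 weeks held 26825 TPM of 5 erythroid markers, against 103 to 2766 TPM in the other 6 CAC libraries of that time. Among markers of brown adipocytes at 8 weeks, 2 of 7 were higher and 1 lower in CAC than Con, Ucp1 at 3061 ± 1209 TPM in CAC (SD, n = 7) and 5062 ± 532 TPM in Con (n = 5). Of 7 markers of gland and surface epithelium 5 were lower, and of 4 endothelial markers 2 were higher and 1 lower. In CAC against Con at 8 weeks, 54% of all genes were called on TPM and 26.5% after rescaling.

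Of the 120 tests of 10 genes in 12 comparisons between arms within a week, 7 were called and all 7 were higher in CAC. They belonged to 3 genes, Ldha with 4 calls, Slc2a1 with 2 and Pgk1 with 1, and the other 7 genes had none. Against Con, 2 members were called at 8 weeks, where 54% of all genes were, and 2 at 6 weeks, where 21.7% of all genes were. Against NCAC, 2 members were called at 8 weeks, where 39.3% of all genes were, and 1 at 6 weeks, where 7.77% of all genes were. The share of members called was thus below that of all genes at 8 weeks and close to it at 6 weeks. At 2 and 4 weeks limma called 0 members in CAC against Con (0 and 3 at an unadjusted p under 0.05; 4.63% and 3.85% of all genes called) and 0 against NCAC (0 and 0; 0.0397% and 0.588%). The median member changed by 0.20 in CAC against Con at 8 weeks and by 0.26 at 6 weeks, against 0.28 and 0.18 for all genes. After rescaling, the members' median was -0.16 at 8 weeks and 0.04 at 6 weeks. Rescaled TPM called 3 members against Con at 8 weeks, where 26.5% of all genes were called, and 1 at 6 weeks, where 8.35% were. Against NCAC, limma on rescaled TPM called 0 at 8 weeks, where 24.7% of all genes were called and 3 members had an unadjusted p under 0.05, and 1 at 6 weeks, where 10.7% were.

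**Figure D1:**
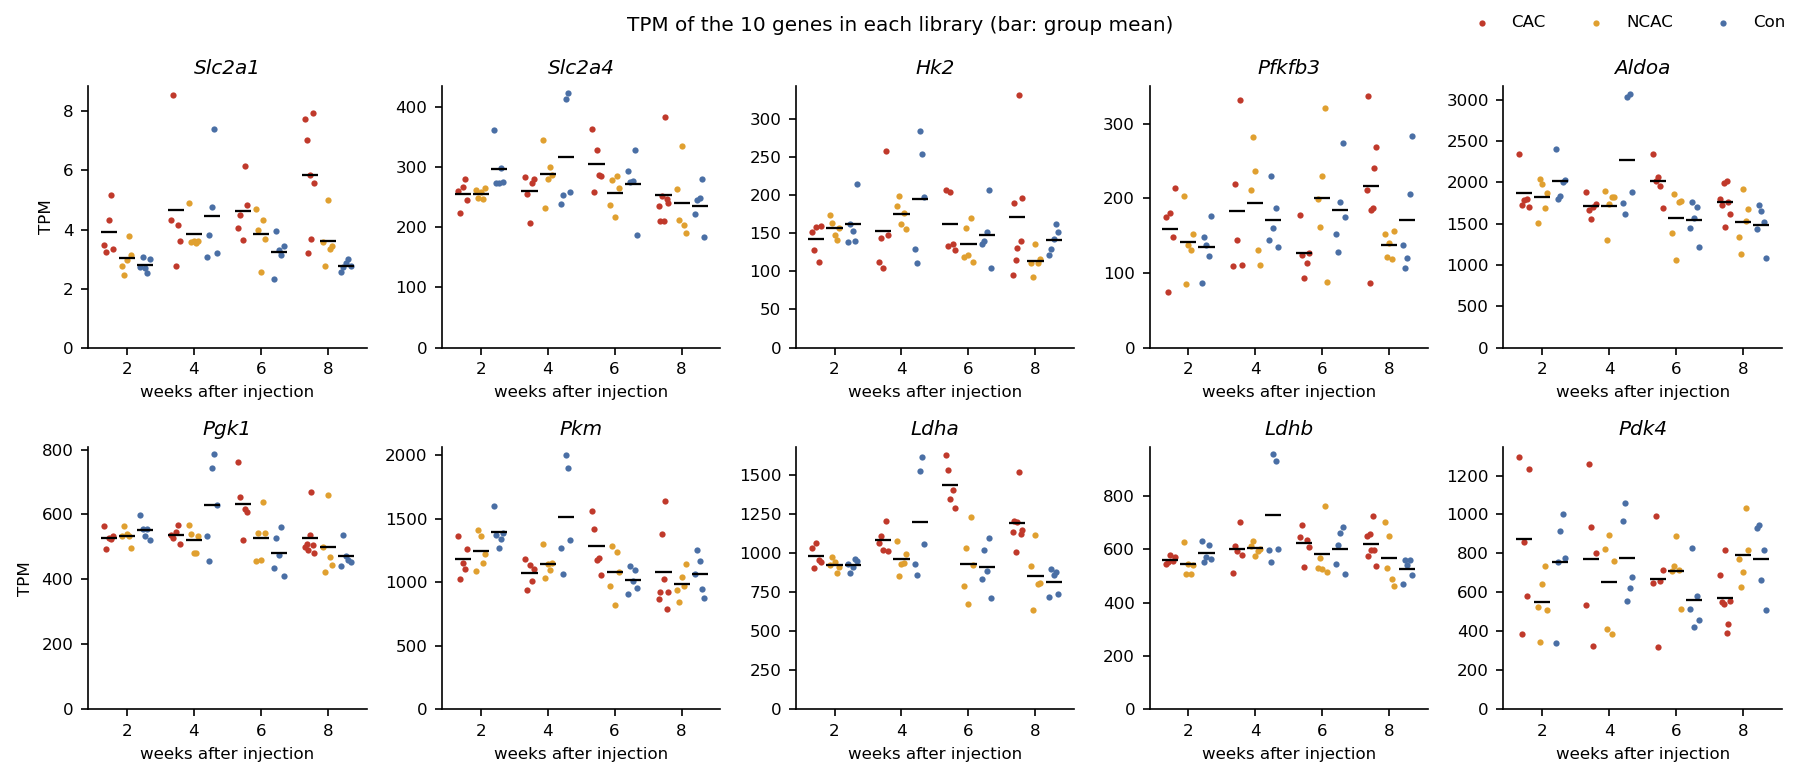
TPM of each of the 10 genes in each library (points) and the group mean (bar), by weeks after injection, with CAC, NCAC and Con from left to right at each time. Ldha stands above both other arms at 6 weeks, with CAC libraries from 1286 to 1625 TPM, and Slc2a1 spreads upward in CAC at 8 weeks, from 3.21 to 7.94 TPM.

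Slc2a1 (chr4:119108711-119137983, + strand, in mm10) rose in CAC at 8 weeks. It lay between 3.21 and 7.94 TPM with a median of 5.83 in the 7 CAC libraries, at 3.58, 2.75, 4.99, 3.32 and 3.45 TPM in NCAC and at 2.55, 2.74, 2.86, 2.99 and 2.76 TPM in Con. Every CAC library was above every Con library, while CAC and NCAC overlapped. Non-overlap with Con held for 2 members, Slc2a1 and Ldha, and for 15% of all genes. The mean was 2.11 times that of Con, a log2 change of 0.81 (SE 0.17, limma adjusted p = 0.000103), and the rescaled change was 0.53 (limma adjusted p = 0.00424). Leaving out each of the 12 libraries in turn gave changes of 0.74 to 0.92 with every call kept, at a limma adjusted p of at most 0.000588. Against NCAC the change was 0.54 (SE 0.17, limma adjusted p = 0.00974), and the call was lost after rescaling, at 0.32 (limma adjusted p = 0.0894). The rise was uneven between CAC libraries. Replicates 3 and 5 held 3.21 and 3.67 TPM, and the other 5 held 5.58 to 7.94 TPM.

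Earlier, Slc2a1 was at 3.48, 3.22, 4.31, 5.16 and 3.33 TPM in CAC and 2.72, 3.07, 2.70, 2.52 and 3.00 TPM in Con at 2 weeks. These groups did not overlap, as for 8.66% of all genes, but the log2 change of 0.35 (SE 0.18, limma adjusted p = 0.316) was not called. At 4 weeks a single CAC library, replicate 2, reached 8.55 TPM where the other 4 lay at 2.75 to 4.33, and Con ranged from 3.08 to 7.42 TPM. At 6 weeks CAC ranged from 3.64 to 6.14 TPM, NCAC from 2.56 to 4.70 and Con from 2.32 to 3.95, with a change against Con of 0.41 (SE 0.18, limma adjusted p = 0.0927). Within CAC the change of 8 against 2 weeks was 0.45 (SE 0.17, limma adjusted p = 0.0490), the 1 member called where 20.5% of all genes were. That call was kept only without CAC replicate 3 or 5 of 8 weeks or CAC replicate 4 of 2 weeks and lost without any 1 of the other 9 libraries, with changes of 0.38 to 0.56, and after rescaling, at 0.36 (limma adjusted p = 0.0507). In Con the same change was -0.01 (SE 0.18, limma adjusted p = 0.984), and the test of the difference itself, the change of CAC against Con between 2 and 8 weeks, gave 0.46 (SE 0.25, limma adjusted p = 0.196).

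Macrophages also express Slc2a1, and their markers moved with it. In CAC against Con at 8 weeks, 54% of all genes were called on TPM and 26.5% after rescaling. All 6 macrophage markers rose in that comparison, 5 of them after rescaling. Their summed level was 93.2 to 243 TPM in CAC, 36.02 to 64.8 TPM in NCAC and 44.8 to 59.9 TPM in Con at 8 weeks. At 2 weeks it was 64.01 to 99.6 TPM in CAC, 36.7 to 88.9 TPM in NCAC and 33.4 to 52.9 TPM in Con. CAC replicate 3 of 8 weeks was lowest of its group both for Slc2a1 and for this sum, whereas replicate 5, next lowest for Slc2a1, had the median sum of the group at 184 TPM. None of the 6 markers was at 0 in the median of any group. The 4 neutrophil markers also rose on both scales. The part of these cells in the Slc2a1 result was not tested.

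Slc2a4 (chr11:69942539-69948188, - strand), the insulin-regulated transporter, was called in 0 of 12 comparisons, with 0 at an unadjusted p under 0.05. In week 8 it lay between 210.1 and 384 TPM with a median of 240.0 in CAC, at 263, 211, 335, 204 and 191 TPM in NCAC and at 222, 246, 249, 281 and 183 TPM in Con. The groups overlapped widely, and the CAC maximum was 1 library, replicate 5, above the next at 253 TPM. The change against Con was 0.09 (SE 0.14, limma adjusted p = 0.592), with a 95% interval of -0.19 to 0.37. After rescaling it turned to -0.27 (limma adjusted p = 0.106). On average Slc2a1 made up a larger part of the 2 transporter transcripts in CAC at 8 weeks, 2.38% ± 0.941 of their summed TPM (SD, n = 7), against 1.49% ± 0.197 in NCAC and 1.18% ± 0.174 in Con (n = 5 each). This share needs no scaling between libraries. It ranged from 0.948% to 3.23% in CAC, with replicates 3 and 5 at the low end, 1.29% to 1.77% in NCAC and 1.05% to 1.49% in Con, so the groups overlapped.

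Hk2 and Pfkfb3 act at the entry of the pathway. Hk2 (chr6:82725025-82774454, - strand) encodes hexokinase 2, which traps glucose as glucose 6-phosphate. In CAC at 8 weeks it lay between 95.7 and 331 TPM with a median of 139.8, against 111, 92.5, 136, 111 and 116 TPM in NCAC and 122, 129.5, 142, 163 and 151 TPM in Con. CAC replicate 5 alone made the maximum, and 3 of 7 CAC libraries exceeded every Con library. The changes were 0.17 (SE 0.21, limma adjusted p = 0.513) against Con and 0.49 (SE 0.21, limma adjusted p = 0.0573) against NCAC. The second was called without any 1 of CAC replicates 1, 3 or 4 or NCAC replicate 3, with changes of 0.53 to 0.61 and a lowest limma adjusted p of 0.0186, and also without Con libraries 3 and 4 of 4 weeks, which enter the estimate of spread. After rescaling it was 0.22 (limma adjusted p = 0.393).

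Pfkfb3 (chr2:11471433-11554077, - strand) encodes the enzyme that makes fructose 2,6-bisphosphate, the activator of phosphofructokinase. It varied most between libraries of a group, with a within-group SD of 0.51 on the log2 scale. At 6 weeks it was at 178, 124, 93.4, 114 and 127 TPM in CAC, 199, 161, 231, 321 and 88.01 TPM in NCAC and 152, 128, 196, 274 and 175 TPM in Con. Then, in week 8, it lay between 87.2 and 338 TPM with a median of 212 in CAC, at 153, 122, 141, 119 and 156 TPM in NCAC and at 137, 107, 121, 207 and 283 TPM in Con. Of all 12 groups CAC at 6 weeks had the lowest mean and CAC at 8 weeks the highest, but the arms overlapped at both times. Neither difference from Con was called, at -0.52 (SE 0.31, limma adjusted p = 0.221) for 6 weeks and 0.34 (SE 0.29, limma adjusted p = 0.322) for 8 weeks. Against NCAC at 8 weeks the change was 0.56 (SE 0.29, limma adjusted p = 0.118), and 0.76 (limma adjusted p = 0.0245) without CAC replicate 3, the library with 87.2 TPM.

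Of the 3 enzymes further down the pathway, Pgk1 was called once, at 6 weeks and on TPM alone, and Aldoa and Pkm were not called on TPM in any week. Pgk1 (chrX:106187100-106203699, + strand) encodes phosphoglycerate kinase, the first ATP-yielding step. At 6 weeks it was at 762, 654, 522, 618 and 607 TPM in CAC, 456, 541, 459, 638 and 542 TPM in NCAC and 435, 529, 475, 559.9 and 411 TPM in Con. CAC and Con overlapped, with CAC replicate 3 below 2 Con libraries. The change against Con was 0.39 (SE 0.11, limma adjusted p = 0.00860) and, after rescaling, 0.17 (limma adjusted p = 0.329), so the call rested on the scale. At 8 weeks it was 0.15 (SE 0.10, limma adjusted p = 0.191), and without mitochondrial genes -0.25 (limma adjusted p = 0.0158). A retrogene-like copy listed as Pgk1-rs7 reached at most 2.23 TPM, and how the authors' counting split reads between copies is not given in the sources used here.

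Aldoa encodes aldolase A, which splits fructose 1,6-bisphosphate. The annotation gives its symbol to a pair of gene entries (chr7:126795234-126800751 and chr7:126800790-126809108, both - strand), and the file holds 1 row for it. At 6 weeks it was at 2337, 2014, 2059, 1961 and 1691 TPM in CAC, 1388, 1859, 1063, 1765 and 1777 TPM in NCAC and 1448, 1758, 1563, 1704 and 1215 TPM in Con. In CAC, 4 of 5 libraries exceeded every library of the other arms. The change of 0.39 (SE 0.15, limma adjusted p = 0.0549) against Con narrowly missed the threshold and passed it without CAC replicate 5, Con replicate 2 or Con replicate 4, at 0.43 to 0.45, and in 3 other fits, those without Con libraries 3 and 4 of 4 weeks, with a filter of 5 TPM and of only the groups compared. After rescaling it was 0.17 (limma adjusted p = 0.516). The week 8 change was 0.26 (SE 0.14, limma adjusted p = 0.107) on TPM and -0.10 (limma adjusted p = 0.616) rescaled, with the sign turned.

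Pkm (chr9:59656368-59679375, + strand) encodes pyruvate kinase, the last step of the pathway, and its M1 and M2 forms cannot be told apart at the gene level. At 8 weeks it lay between 789 and 1640 TPM with a median of 921 in CAC, at 938, 843, 1037, 966 and 1143 TPM in NCAC and at 1067, 1249, 1167, 947 and 871 TPM in Con. The CAC libraries fell into a low majority, 5 of 7 at 789 to 1022 TPM, and replicates 3 and 5 at 1376 and 1640 TPM. On TPM the change was -0.01 (SE 0.14, limma adjusted p = 0.945), while the rescaled change was -0.37 (limma adjusted p = 0.0302), a fall relative to the median gene. Rescaled TPM called 1 member higher and 2 lower in that comparison, Slc2a1, Pkm and Pdk4, where 26.5% of all genes were called. At 4 weeks the change was -0.46 (SE 0.15, limma adjusted p = 0.0606), and it was called lower in the fits without Con replicate 1, 2 or 5 and with muscle markers as a covariate. Con ranged from 1067 to 1999 TPM there, with libraries 3 and 4 at 1999 and 1899 TPM. Muscle also makes much Pkm and Aldoa. The summed level of the 17 muscle markers was 516 TPM in Con library 3 and 22598 TPM in Con library 4, the lowest and highest of that group. At 2 weeks its median was 6289 TPM in CAC, 3224 TPM in NCAC and 730 TPM in Con. None of the 17 markers was called in CAC against Con at 8 weeks, where 54% of all genes were called on TPM.

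**Figure D2:**
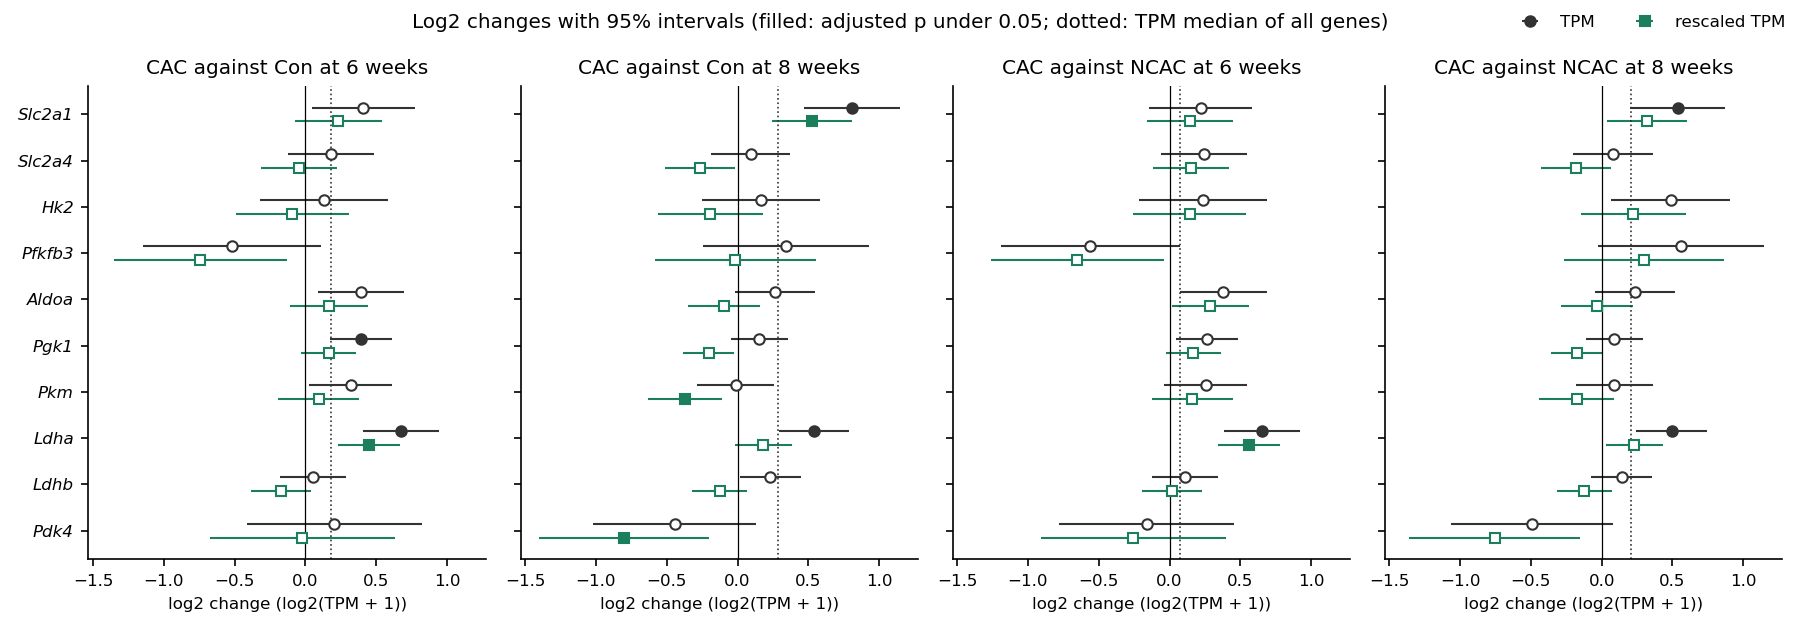
Log2 changes of CAC against Con and against NCAC at 6 and 8 weeks, with 95% intervals, for TPM (circles) and rescaled TPM (squares), filled where the adjusted p is under 0.05; the dotted line is the TPM median of all genes. Ldha at 6 weeks and Slc2a1 against Con at 8 weeks are filled on both scales. At 8 weeks the rescaled values of most genes lie to the left of their TPM values, against Con by somewhat more than the all-gene median of 0.28.

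Ldha (chr7:46841475-46855627, + strand), the A chain of lactate dehydrogenase, showed the clearest difference, and it was largest at 6 weeks. In CAC it was at 1625, 1528, 1346, 1404 and 1286 TPM, in NCAC at 785, 1032, 675, 1229 and 924 TPM and in Con at 831, 1021, 884, 1092 and 712 TPM. Every CAC library lay above every library of both other arms, as for 15.9% of all genes against Con and 8.11% against NCAC, and in both comparisons Ldha was the 1 member that did so. The mean was 1.58 times that of Con and 1.55 times that of NCAC. The log2 change against Con was 0.67 (SE 0.13, limma adjusted p = 0.000274) and, after rescaling, 0.45 (limma adjusted p = 0.00410). Against NCAC it was 0.66 (SE 0.13, limma adjusted p = 0.000680) and, after rescaling, 0.56 (limma adjusted p = 0.000230). Leaving out single libraries gave 0.59 to 0.74 against Con and 0.55 to 0.76 against NCAC, with every call kept. Mitochondrially encoded transcripts took 50.9% to 53.5% of TPM in CAC, 48.4% to 61.8% in NCAC and 57.1% to 66.1% in Con at that time. With these transcripts left out, the change was 0.37 against Con (limma adjusted p = 0.00607) and 0.51 against NCAC (limma adjusted p = 0.000159). The summed level of the 6 macrophage markers was 143 to 174 TPM in CAC, 52.6 to 124 TPM in NCAC and 38.4 to 119 TPM in Con, also without overlap, and its part in the Ldha result was not tested.

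At 8 weeks Ldha lay between 1008 and 1517 TPM with a median of 1147 in CAC, at 916, 632, 1117, 799 and 804 TPM in NCAC and at 715, 899, 856, 877 and 736 TPM in Con. CAC stood wholly above Con and overlapped NCAC through NCAC replicate 3. The changes were 0.54 (SE 0.12, limma adjusted p = 0.000346) against Con and 0.49 (SE 0.12, limma adjusted p = 0.00154) against NCAC. After rescaling they were 0.18 (limma adjusted p = 0.178) and 0.23 (limma adjusted p = 0.0847), the same sign but not called. At 2 and 4 weeks the arms overlapped, with changes against Con of 0.08 (SE 0.13, limma adjusted p = 0.843) and -0.10 (SE 0.13, limma adjusted p = 0.721). At 4 weeks Con libraries 3 and 4 were at 1526 and 1614 TPM where the other 3 lay at 859 to 1058 TPM. The change of CAC against Con between 2 and 8 weeks was 0.46 (SE 0.18, limma adjusted p = 0.0802), 1 of 10 members with an unadjusted p under 0.05 and 0 called, where 11.6% of all genes were. It was called without CAC replicate 3 of 8 weeks, at 0.50 (limma adjusted p = 0.0441).

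Ldhb (chr6:142490249-142507957, - strand), the B chain, did not share this pattern at 6 weeks. It was at 645, 691, 534, 633 and 608 TPM in CAC, 531, 568.2, 527, 764 and 514 TPM in NCAC and 544, 616, 661, 682 and 506 TPM in Con, with wide overlap and a change against Con of 0.05 (SE 0.12, limma adjusted p = 0.766). Week 8 values lay between 538 and 725 TPM with a median of 598 in CAC, at 702, 529, 649, 489.5 and 462 TPM in NCAC and at 468, 561, 539, 560.4 and 502 TPM in Con. The change against Con was 0.23 (SE 0.11, limma adjusted p = 0.0625) on TPM and -0.13 (limma adjusted p = 0.355) rescaled, so its sign depended on the scale. It passed the threshold on TPM without CAC replicate 7 of 8 weeks, at 0.27 (limma adjusted p = 0.0409), with the replicate number as a block, at 0.28 (limma adjusted p = 0.0403), and in 3 other fits, those without Con libraries 3 and 4 of 4 weeks, with muscle markers as a covariate and of only the groups compared.

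The balance of the B and A chains can be read within a library, free of any scaling. Ldhb made up 30.2% ± 1.72 of the summed Ldha and Ldhb TPM in CAC at 6 weeks, 38.7% ± 3.47 in NCAC and 39.99% ± 2.14 in Con (SD, n = 5 each). The CAC libraries lay at 28.4% to 32.1%, below all NCAC libraries at 35.5% to 43.8% and all Con libraries at 37.6% to 42.8%. At 8 weeks the share was 34.3% ± 2.75 in CAC (n = 7), 40.04% ± 4.16 in NCAC and 39.2% ± 0.855 in Con (n = 5 each). There, 6 of 7 CAC libraries, at 31.9% to 36.4%, were below every library of the other arms, and replicate 3 at 39.4% was not. At 2 weeks the means were 36.5% ± 1.51 in CAC, 37.04% ± 2.23 in NCAC and 38.8% ± 1.13 in Con, and at 4 weeks 35.6% ± 1.89, 38.7% ± 2.38 and 37.9% ± 1.41 in the same arms, with overlap at both times. The promoters printed above differ in the same pair of genes in matches to ACGTG, 5 for Ldha, some of them overlapping, and 0 for Ldhb. The second start of Ldha also held 0, and other forms of the core were not searched. At least 1 promoter of each of Hk2, Pfkfb3, Aldoa and Pkm held matches too. These members were called on TPM in 0 of the 12 comparisons between arms. Such counts describe letters and not binding, and their part in the shares was not tested. No p is given for these shares, which combine a pair of members.

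**Figure D3:**
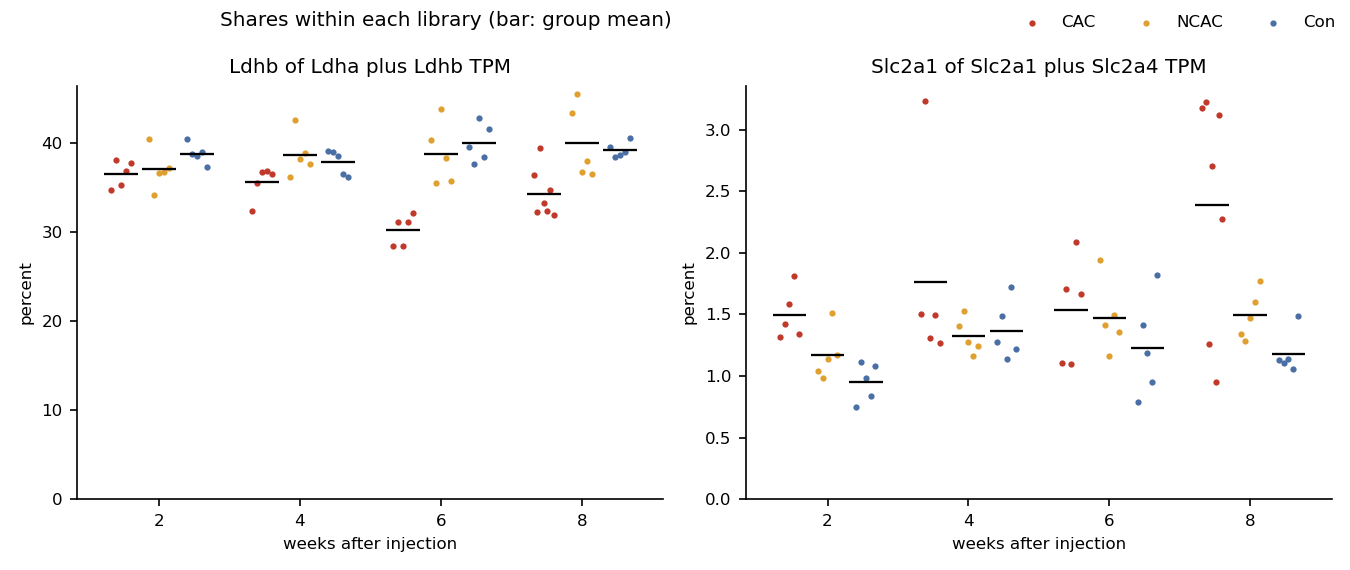
Percent of the summed TPM of a gene pair taken by Ldhb (left, with Ldha) and by Slc2a1 (right, with Slc2a4) in each library (points) and the group mean (bar), by weeks after injection, with CAC, NCAC and Con from left to right. The CAC points for Ldhb drop to 28.4% to 32.1% at 6 weeks, and those for Slc2a1 reach 3.23% at 8 weeks with a pair of libraries near the level of Con.

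Pdk4 (chr6:5483351-5496309, - strand), the kinase that turns off pyruvate dehydrogenase, was among the most variable members, with a within-group SD of 0.50 on the log2 scale. At 8 weeks it lay between 393 and 818 TPM with a median of 552 in CAC, at 772, 626, 702, 1035 and 817 TPM in NCAC and at 930.5, 947, 665, 817 and 507 TPM in Con. CAC was lower on average but overlapped both arms. The change of -0.44 (SE 0.29, limma adjusted p = 0.185) against Con was not called on TPM, with a 95% interval of -1.02 to 0.13, whereas the rescaled change was -0.80 (limma adjusted p = 0.0408). Against NCAC the rescaled change was -0.76 (limma adjusted p = 0.0570). At 2 weeks the CAC libraries alone spanned 386 to 1295 TPM, and Con spanned 341 to 1002 TPM.

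Between NCAC and Con, limma called 0 members at 2, 4, 6 and 8 weeks. At an unadjusted p under 0.05 there were 0, 4, 0 and 0 members, and 0%, 0.00795%, 0% and 0% of all genes were called. The 4 at 4 weeks were lower in NCAC and included Pkm at -0.36 (SE 0.15, limma adjusted p = 0.208), beside the high Con libraries 3 and 4, and after rescaling it was -0.21 (limma adjusted p = 0.708). Slc2a4 at 2 weeks was at 262, 249, 258, 247 and 265 TPM in NCAC, wholly below Con at 362, 273, 273, 299 and 275 TPM, as for 3.19% of all genes, without a call at -0.20 (SE 0.15, limma adjusted p = 0.845). At 8 weeks the 95% interval of the NCAC change against Con was -0.22 to 0.31 for Ldha and -0.09 to 0.64 for Slc2a1.

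Within Con, Aldoa was at 1430, 1720, 1658, 1514 and 1087 TPM in Con at 8 weeks, wholly below 2404, 1793, 1838, 2009 and 2026 TPM at 2 weeks, and Pkm likewise at 1067, 1249, 1167, 947 and 871 TPM against 1602, 1368, 1265, 1339 and 1387 TPM. These 2 members did not overlap between the times, as for 10.8% of all genes. Limma called 0 members (4 at an unadjusted p under 0.05), where 0.0318% of all genes were called, and the changes of -0.45 (SE 0.15, limma adjusted p = 0.0987) for Aldoa and -0.40 (SE 0.15, limma adjusted p = 0.125) for Pkm were shallower after rescaling, at -0.31 and -0.26. In the fit of only those groups, Aldoa, Pkm and Pgk1 were called lower.

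Genes around the pathway, from lists chosen by function, were counted for CAC against Con at 8 weeks. Of all genes, 54% were called on TPM and 26.5% after rescaling, and these shares stand beside each list counted below at that time. Of 19 other glycolytic enzymes tested, 6 were higher and 0 lower on TPM, and 0 higher and 4 lower after rescaling, with medians of 0.19 and -0.11 against 0.28 and -0.01 for all genes. Tpi1, triose phosphate isomerase, averaged 444 ± 35.6 TPM in CAC and 341 ± 38.8 in Con (SD), a change of 0.38 (SE 0.12, limma adjusted p = 0.00526), but 0.03 (limma adjusted p = 0.862) rescaled. Pgam1, phosphoglycerate mutase, averaged 615 ± 47.7 TPM in CAC and 630.5 ± 51.4 in Con, and only its rescaled change, -0.39 (limma adjusted p = 0.000702), was called. Gapdh, often used as a control gene, was called on neither scale, with 617 ± 81.8 TPM in CAC and 541 ± 76.3 in Con. Bpgm, which makes 2,3-bisphosphoglycerate in red cells, changed by 0.67 (SE 0.14, limma adjusted p = 0.000110). It lay between 11.2 and 33.2 TPM in CAC and between 7.88 and 10.9 TPM in Con, without overlap, as for 15% of all genes. Its highest value was in CAC replicate 3, the library with most erythroid transcripts. The median sum of the erythroid markers was 1617 TPM in CAC and 2761 TPM in Con. The part of red cells in the Bpgm result was not tested. Not tested for low values were Hk3 and Pklr.

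Among 11 tested genes of other sugar and lactate transport, 2 were higher and 1 lower on TPM, and 1 higher and 3 lower after rescaling. Slc2a3, the high-affinity transporter GLUT3, lay between 0.415 and 2.31 TPM with a median of 1.49 in CAC, at 0.410, 0.344, 0.574, 0.465 and 0.256 TPM in NCAC and at 0.217, 0.429, 0.234, 0.448 and 0.321 TPM in Con. It rose by 0.81 (SE 0.15, limma adjusted p = 2.63e-05) against Con and by 0.66 (limma adjusted p = 0.000406) rescaled, from a very low level, and CAC replicate 3 at 0.415 TPM was the 1 CAC library within the Con range. Slc16a1, the lactate transporter MCT1, lay between 25.3 and 151 TPM with a median of 39.5 in CAC and at 71.8, 111, 54.6, 65.1 and 51.3 TPM in Con, -0.61 (SE 0.29, limma adjusted p = 0.0691) on TPM and -0.96 (limma adjusted p = 0.0104) rescaled, with CAC replicate 5 alone at that maximum and the others at 25.3 to 52.3 TPM. Bsg, the chaperone of MCT1, and Txnip, which limits glucose uptake, were called on neither scale. Slc2a2 and Slc2a10 were not tested for low values.

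Around pyruvate, 3 of 14 genes were higher and 1 lower on TPM, and 1 higher and 6 lower after rescaling. Pcx, pyruvate carboxylase, which feeds pyruvate into oxaloacetate, lay between 362 and 559 TPM with a median of 448 in CAC, at 202, 293, 348, 273 and 329.8 TPM in NCAC and at 244, 287, 258, 275 and 237 TPM in Con. It stood wholly above Con, without overlap as for 15% of all genes, and wholly above NCAC, for which that share is not given. Against Con it rose by 0.77 (SE 0.12, limma adjusted p = 2.40e-06), 0.41 (limma adjusted p = 0.00133) rescaled. Pdhb, a subunit of pyruvate dehydrogenase, averaged 750.4 ± 169 TPM in CAC and 921 ± 109 in Con and fell on both scales, with a change of -0.31 (SE 0.13, limma adjusted p = 0.0326) and -0.67 (limma adjusted p = 0.000171) rescaled. Pdk2, another pyruvate dehydrogenase kinase, changed by 0.53 (SE 0.15, limma adjusted p = 0.00320) and by 0.17 (limma adjusted p = 0.332) rescaled, where Pdk4 was lower only after rescaling. Pdha1, the catalytic subunit, changed by 0.01 (SE 0.08, limma adjusted p = 0.917) and -0.35 (limma adjusted p = 0.00290) rescaled, and Mpc1, of the mitochondrial pyruvate carrier, by 0.06 (SE 0.14, limma adjusted p = 0.715) on TPM.

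Of 12 glycogen genes, 4 were higher and 0 lower on TPM, and 1 higher and 3 lower after rescaling. Gyg, glycogenin, the primer of glycogen, lay between 151 and 318 TPM with a median of 269.7 in CAC, at 101, 147, 94.9, 101 and 129 TPM in NCAC and at 115, 166, 100.1, 130.4 and 69.4 TPM in Con. It rose by 1.12 (SE 0.18, limma adjusted p = 1.32e-06) and by 0.77 (limma adjusted p = 0.000513) rescaled, with CAC replicate 3 the 1 CAC library within the Con range. Pygl, glycogen phosphorylase of liver type, and Pgm1, phosphoglucomutase, were called higher on TPM, at 0.35 and 0.51, and not after rescaling. Of 12 genes of the pentose phosphate and glycerol 3-phosphate routes, 3 were higher and 0 lower on TPM, and 2 higher and 6 lower after rescaling. H6pd, which makes NADPH in the endoplasmic reticulum, averaged 120.4 ± 24.6 TPM in CAC and 65.9 ± 6.93 in Con and rose by 0.84 (SE 0.14, limma adjusted p = 6.30e-06), 0.49 (limma adjusted p = 0.00340) rescaled. Tkt, transketolase, averaged 684 ± 349 TPM in CAC and 899 ± 249.5 in Con, and only its rescaled change, -0.84 (limma adjusted p = 0.0107), was called. Gpd1, the most abundant of all these genes, averaged 5438 ± 1546 TPM in CAC and 5398 ± 539 in Con, -0.03 (SE 0.14, limma adjusted p = 0.892) on TPM and -0.38 (limma adjusted p = 0.0285) rescaled.

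Of 15 regulators of glycolytic genes, 7 were higher and 2 lower on TPM, and 3 higher and 5 lower after rescaling. Myc, the transcription factor, lay between 2.88 and 11.1 TPM with a median of 7.96 in CAC, at 1.07, 1.35, 3.02, 2.81 and 5.37 TPM in NCAC and at 1.04, 1.20, 2.00, 1.01 and 1.02 TPM in Con. Every CAC library exceeded every Con library, without overlap as for 15% of all genes. The change was 1.86 (SE 0.30, limma adjusted p = 2.60e-06), 1.61 (limma adjusted p = 1.66e-05) rescaled. Mlxip, a glucose-sensing factor also called MondoA, averaged 20.4 ± 5.06 TPM in CAC and 10.8 ± 1.15 in Con and rose by 0.82 (SE 0.15, limma adjusted p = 2.60e-05), 0.48 (limma adjusted p = 0.00256) rescaled. Egln1, the prolyl hydroxylase PHD2 that marks HIF for breakdown, averaged 70.9 ± 10.6 TPM in CAC and 114 ± 12.9 in Con and fell on both scales, at -0.69 (SE 0.15, limma adjusted p = 0.000134) and -1.04 (limma adjusted p = 2.35e-07) rescaled. Epas1, a HIF factor, was at -0.14 (SE 0.10, limma adjusted p = 0.238) on TPM and was called lower after rescaling, at -0.50 (limma adjusted p = 0.000106). Hif1a likewise was at -0.01 (SE 0.12, limma adjusted p = 0.929) on TPM and -0.36 (limma adjusted p = 0.0123) rescaled, whereas Arnt, the partner of both, was higher on both scales, at 0.61 (SE 0.12, limma adjusted p = 6.45e-05) and 0.28 (limma adjusted p = 0.0261) rescaled. Hif1a and Arnt were named after their values were seen. Of 8 other hypoxia-responsive genes, 5 were higher and 0 lower on TPM, and 3 higher and 0 lower after rescaling, with medians of 0.56 and 0.29. Ddit4, an inhibitor of mTORC1 also induced by glucocorticoids, lay between 11.8 and 216 TPM with a median of 32.99 in CAC, at 9.70, 4.62, 21.7, 15.8 and 12.6 TPM in NCAC and at 5.34, 4.86, 5.72, 8.53 and 13.9 TPM in Con, a change of 2.44 (SE 0.53, limma adjusted p = 0.000162), 2.11 (limma adjusted p = 0.00188) rescaled. Bnip3, a mitophagy receptor, rose by 0.88 (SE 0.27, limma adjusted p = 0.00617) on TPM and was at 0.52 (limma adjusted p = 0.138) rescaled. Vegfa, the vessel growth factor, was called on neither scale, and Car9 was not tested for low values.

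**Figure D4:**
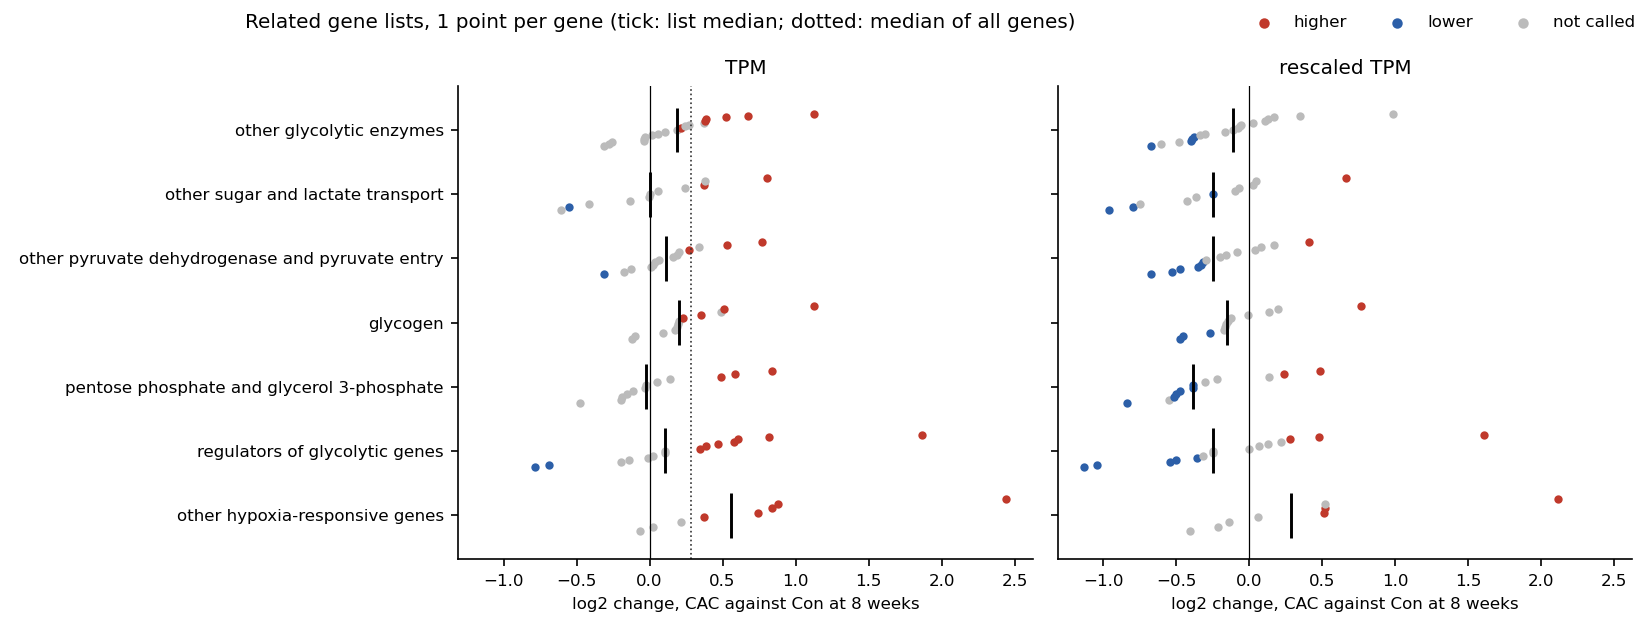
Log2 change of CAC against Con at 8 weeks for each tested gene of 7 related lists on TPM (left) and rescaled TPM (right), coloured by call, with the list median (tick) and the TPM median of all genes (dotted). The list of other hypoxia-responsive genes has a median of 0.56 on TPM and 0.29 rescaled, and the medians of the other 6 lie below 0 after rescaling.

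In week 6 the same lists, counted against 21.7% of all genes, had 5 of 19 other glycolytic enzymes, 2 of 11 transport genes, 4 of 14 pyruvate genes, 3 of 12 glycogen genes, 2 of 12 pentose and glycerol 3-phosphate genes, 5 of 15 regulators and 3 of 8 hypoxia-responsive genes higher in CAC than Con on TPM. A single gene, Slc2a12, was lower. Those higher on TPM included Gapdh at 0.38 (limma adjusted p = 0.0368) and Vegfa at 0.38 (limma adjusted p = 0.0496). They also included Txnip at 0.78 (limma adjusted p = 0.0433) and Hif1a at 0.38 (limma adjusted p = 0.0297). None of these was called after rescaling, at 0.15, 0.16, 0.55 and 0.17. After rescaling, where 8.35% of all genes were called, 0 other glycolytic enzymes were called in either direction. Pcx, Gyg, Myc and Ndrg1 remained higher after rescaling and Slc2a12 remained lower, Slc2a12 and Ndrg1 being named after their values were seen. Against NCAC at 8 weeks, where 39.3% of all genes were called on TPM, 2 other glycolytic enzymes were higher and 0 lower, 2 transport genes higher and 1 lower, and 2 pyruvate genes higher and 1 lower. Of the other lists, 2 glycogen genes, 3 pentose and glycerol 3-phosphate genes and 5 hypoxia-responsive genes were higher and 0 lower, and 4 regulators were higher and 2 lower. After rescaling, with 24.7% of all genes called, 0 other glycolytic enzymes were higher and 2 lower, 1 transport gene higher and 3 lower, and 1 pyruvate gene higher and 2 lower. On that scale 1 glycogen gene, 2 pentose and glycerol 3-phosphate genes and 2 hypoxia-responsive genes were higher and 0 lower, and 3 regulators were higher and 5 lower.

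Patterns like those of the members were sought over the 12 group means, rescaled and centred, among 7348 genes that averaged 5 TPM or more, for the 3 members with the widest range of these means. The nearest gene to Pdk4, whose means spanned 0.80 on the log2 scale, was Vldlr, at a root-mean-square difference of 0.107, then Hmgb3 at 0.115 and Ebf1 at 0.134. The nearest to Pfkfb3, with a span of 0.74, was Trib1 at 0.111, then Slc22a5 and Gpat4, both at 0.125. The nearest to Pkm, with a span of 0.63, was Eno1b at 0.0551, then Mtfp1 at 0.0600 and Eno1 at 0.0609. Eno1b is a near-identical copy of Eno1, so the split of reads between them is uncertain. All these points share their libraries, and the likeness is a description.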

How the data were processed

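RNA-seq of brown adipose tissue was read from the deposited table of 62 libraries. Per the labels' protocols, RNA was extracted with Trizol, and libraries came from a TruSeq stranded mRNA kit, read on a NovaSeq. The values are TPM as deposited by the authors, 1 row per gene symbol, on build mm10 per the submitters' processing notes. The aligner, counter and annotation are not given in the sources used here, and the depth of each library is unknown, since TPM sums to the same total in each.

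The test covered 12581 of 47643 symbols, those that reached 1 TPM in 5 or more libraries. Log2(TPM + 1) was fitted with limma 3.58.1 in R 4.3.3, with trend and moderated variances, in 1 model of 12 groups without batch terms, since the labels give no batch. P-values were adjusted over all tested genes by Benjamini-Hochberg and called under 0.05. All p-values are two-sided. Rescaled TPM was divided by median-of-ratios factors. The fit was tried on simulated data with few genes changed and no shift of the median gene. That trial therefore does not bear on the shift of the median gene seen in these libraries. Gene positions come from GENCODE M21.

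The 10 members, the related lists and the marker lists were chosen with earlier results of these data known. All 10 members are described. From each related list the genes named are drawn from the 3 with the highest mean TPM and the 2 with the largest change of CAC against Con at 8 weeks. A gene that this rule names is not reported here.

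Alternatives were a pseudocount of 0.1, no filter and a filter of 5 TPM, rescaling, mitochondrially encoded genes left out, muscle markers as a covariate with and without rescaling, the replicate number as a block, 2 Con libraries left out, a fit of only the groups compared, and each replicate left out. No pair of columns was identical.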

Additional observations from a re-analysis of the deposited data

Results flagged for a closer look

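Each member's values in each of the 12 groups were screened for a library far from the rest of its group, and 11 of 120 were found where chance gives about 1 in 20. Members share libraries, so the 120 sets are not independent and this count is no test. In CAC at 8 weeks, replicate 5 was far above the other 6 libraries for Slc2a4 at 384 TPM, Hk2 at 331 TPM, Pgk1 at 670.2 TPM and Ldha at 1517 TPM. In CAC at 4 weeks, Slc2a1 reached 8.55 TPM in replicate 2, and Hk2 reached 258 TPM in replicate 4, where the other 4 lay at 104 to 148 TPM. In CAC at 2 weeks, Aldoa reached 2342 TPM in replicate 1, where the others lay at 1704 to 1797 TPM. That library also had the highest mean log2 value of the muscle markers in its group, 8.93, and the part of muscle in its Aldoa value was not tested.

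In NCAC at 4 weeks, Slc2a1 was high in replicate 1 at 4.91 TPM, and Aldoa was low in replicate 2 at 1299 TPM, where the others lay at 1740 to 1900 TPM. In NCAC at 6 weeks, Ldhb was high in replicate 4 at 764 TPM, where the others lay at 514 to 568.2 TPM. In Con at 2 weeks, Slc2a4 was high in replicate 1 at 362 TPM, where the others lay at 273 to 299 TPM.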

How the results depend on the processing

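No called gene changed direction under the alternatives run. The count of members called for CAC against Con was 2 at 6 weeks and 1 under rescaling, with mitochondrially encoded genes left out, and with muscle markers and rescaling. It was 3 with a filter of 5 TPM, without Con libraries 3 and 4 of 4 weeks and in the fit of only the groups compared, and 2 to 3 without single libraries. At 8 weeks it was 2, 5 with mitochondrially encoded genes left out (1 higher, 4 lower), and 2 to 3 without single libraries. It was 3 under rescaling, with muscle markers with or without rescaling, with the replicate block, without those Con libraries and in the fit of only the groups compared. At 4 weeks it was 0, and 1 with muscle markers, and 0 to 1 without single libraries. For CAC against NCAC at 8 weeks it was 2, and 0 under rescaling, with mitochondrially encoded genes left out, and with muscle markers and rescaling, 1 in the fit of only the groups compared, 3 without Con libraries 3 and 4 of 4 weeks, and 2 to 4 without single libraries. For CAC at 8 against 2 weeks it was 1, and 0 with a pseudocount of 0.1, no filter, a filter of 5 TPM, rescaling, the replicate block or the groups compared alone, and 0 to 1 without single libraries. For Con at 8 against 2 weeks it was 0, and 1 without Con libraries 3 and 4 of 4 weeks and 3 in the fit of only the groups compared. The change from 2 to 8 weeks was called for 0 members, and 1 in those same 2 fits, and 0 to 1 without single libraries. With mitochondrially encoded genes left out, 14181 genes were tested, and the median gene changed by -0.05 in CAC against Con at 8 weeks. The share of all genes called is given only for the main fit and for rescaled TPM. Counts from the other fits have no such share beside them and cannot be read against it. The cause of these differences in count was not tested.

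No pairing by replicate number was seen in correlations between libraries of different groups. The 330 same-numbered pairs had a median of -0.0157, and 101 were over 0.1. The 1430 pairs with other numbers had a median of -0.000345, and 482 were over 0.1. With the replicate block, Slc2a1 in CAC at 8 against 2 weeks changed by 0.36 (limma adjusted p = 0.174), and Ldhb was added at 8 weeks. Depth is unknown, so the precision of low genes such as Slc2a1 rests on the spread between libraries alone.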
